A study of Arabidopsis thaliana with 6 samples.

Results

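The comparison set seedlings of fio1-5 against seedlings of fio1-1, which carry different mutant alleles of FIONA1 (FIO1) in the Col-0 accession of Arabidopsis thaliana. It used every gene with at least 20 sequencing counts summed over the direct RNA libraries of fio1-5, fio1-1 and Col-0, which left 16426 of the 33314 genes listed. The fio1-5 allele was made with CRISPR and has a deletion next to a splice site of FIO1, while fio1-1 came from chemical (EMS) mutagenesis and changes a splice site so that a short stretch of amino acids is lost. Both lines flower early in long days, each is a single line, and Col-0 is the wild type. All plants were 14 days old and had grown on half-strength Murashige and Skoog medium in long days, and whole seedlings were collected. The series holds 6 samples, an Illumina and a Nanopore sample for each of the 3 genotypes, and the deposited table has 1 column per genotype, read here as the Nanopore library. Since there was 1 library per allele, the difference between alleles and the difference between libraries cannot be told apart, no test was possible, and every value below describes these libraries only.

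FIO1 is the plant relative of the animal enzyme METTL16, which places a methyl group on the N6 position of adenosine (m6A) in the U6 small nuclear RNA of the spliceosome and in some messenger RNAs. Plants without functional FIO1 flower early. A pair of mutant alleles of the same gene can differ in how much activity they leave, and lines made by chemical and by CRISPR mutagenesis can also differ elsewhere in the genome, so genes that differ between the alleles help to separate what mutants of the gene share from what belongs to a line or a library.

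The libraries were of similar depth, with totals of 4682799 counts in fio1-5, against 4351543 in fio1-1 and 4602836 in Col-0. Levels are given as counts or as CPM, counts scaled for library size and composition, where 3 counts correspond to 0.647 CPM in fio1-5, 0.697 CPM in fio1-1 and 0.638 CPM in Col-0. Differences are given as the log2 ratio of fio1-5 over fio1-1, so that a positive value means a higher level in fio1-5, and the interval beside a ratio is its exact 95% counting interval on the log2 scale. Such an interval covers counting error only and not the spread between seedlings or library preparations. The leaf markers RBCS1A, CAB1 (LHCB1.3) and RCA, which define a green seedling, summed to 59475 CPM in fio1-5, 51084 CPM in fio1-1 and 63189.7 CPM in Col-0. The 28 root markers listed summed to 744 CPM in fio1-5, 684 CPM in fio1-1 and 353 CPM in Col-0. Of the 20 compared, 1 was at least 2-fold lower in fio1-5 (RHD6, with 8, 24 and 5 counts in fio1-5, fio1-1 and Col-0), and the median log2 ratio was 0.07. Floral organ markers were nearly absent, with 6 of 10 at 0 counts in fio1-5, against 6 in fio1-1 and 5 in Col-0. In whole seedlings, fewer cells of a type and less RNA per cell cannot be told apart.

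Of the 16426 genes compared, 533 (3.24%) were at least 2-fold higher in fio1-5 than in fio1-1 and 817 (4.97%) were at least 2-fold lower. These shares of all genes are the background for every count of list members given below. They were larger at low counts: of 3149 genes with 20 to 50 counts over the 3 libraries, 347 were higher and 377 lower. Lists whose members had few counts are therefore expected to hold more genes past 2-fold. From the deposited TPM, with 0.5 TPM added, the numbers were 236 and 565 of the same genes. The median log2 ratio over all compared genes was 0.000774, and scaling the libraries to each other favours such a value near equal levels. Large differences lay mostly on the lower side. Among the 10718 genes with at least 100 counts over the 3 libraries, 288 were at least 2-fold lower and 62 at least 2-fold higher in fio1-5. At a cutoff of 8-fold, 25 of these well counted genes were lower and 1, RPT2, was higher. The share of genes past 2-fold was smaller where counts were larger. It was 23.0% among 3149 genes with 20 to 50 counts and 2.09% among 4212 genes with 500 counts or more, and the interval lay wholly on 1 side of equal levels for 318 of the higher and 636 of the lower genes.

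**Figure D1:**
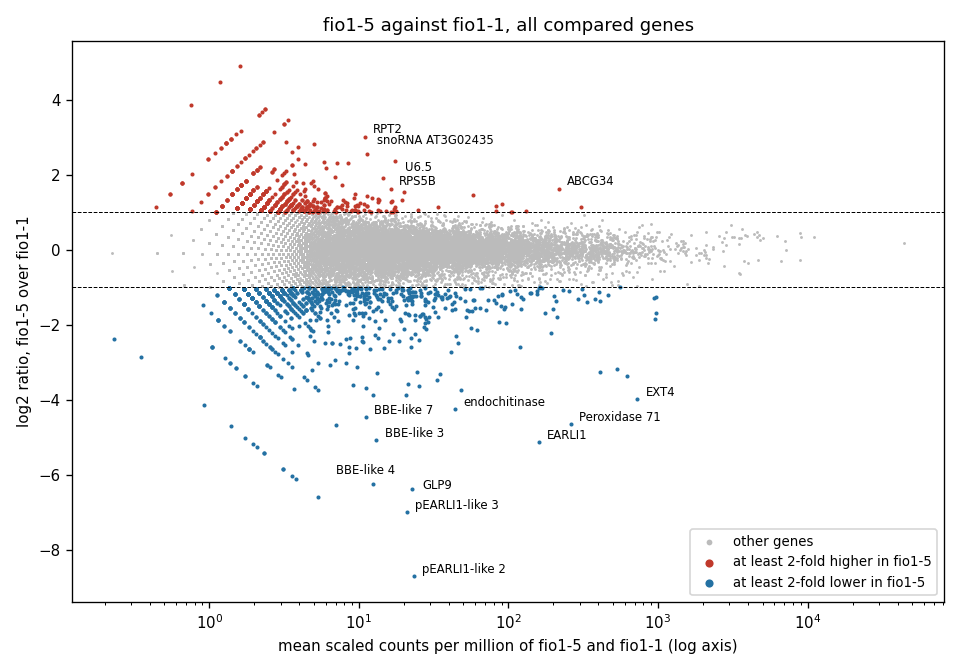
The log2 ratio of fio1-5 over fio1-1 for each compared gene is plotted against its mean CPM in the mutant libraries on a log axis, with red points at least 2-fold higher and blue points at least 2-fold lower in fio1-5. Above 100 CPM the largest differences are on the lower side, led by EARLI1, AT5G64120 (Peroxidase 71) and EXT4, with ABCG34 as the named gene on the higher side.

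FIO1 itself was counted in every library, with 30 counts in fio1-5, against 17 in fio1-1 and 25 in Col-0. Its log2 ratio was 0.70 (interval -0.19 to 1.66), so the levels did not differ beyond counting error, and an allele that alters a splice site or a few codons need not change the count, so this does not check the genotypes. FLC, a repressor of flowering, had 4 counts in fio1-5, against 1 in fio1-1 and 33 in Col-0. At so few counts FLC did not separate the alleles, since the counting interval of its log2 ratio ran over -1.45 to 7.51.

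Among genes with at least 100 counts over the 3 libraries, the 12 lowest ratios included secreted and cell wall proteins with known roles in defence and stress, and fio1-1 was the highest library in all 12. The ranking by ratio and the count filter both favour genes high in fio1-1. That position therefore follows in large part from how the genes were picked. EARLI1 (AT4G12480), a secreted hybrid proline-rich lipid transfer protein that is induced by pathogens and cold, had 8.84 CPM in fio1-5, 311 CPM in fio1-1 and 12.1 CPM in Col-0, a level 35.2-fold lower in fio1-5 than in fio1-1 (log2 ratio -5.12, interval -5.62 to -4.69). Its neighbour AT4G12490, annotated as a pEARLI1-like lipid transfer protein, had 0 counts in fio1-5, against 201 in fio1-1 and 5 in Col-0, which is 72.3-fold lower in fio1-5 when 3 counts are set in place of 0, while its counting interval gives at least 58.2-fold. AT4G12500, another pEARLI1-like gene, had 1 count in fio1-5, against 179 in fio1-1 and 1 in Col-0, a log2 ratio of -6.99 (interval -12.90 to -5.10). The 3 genes stand next to each other in locus order and encode similar proteins, so reads could be split between copies. EARLI1 and AT4G12500 were near the Col-0 level in fio1-5, and AT4G12490 was below it, at few counts.

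The cell wall and oxidative enzymes among the 12 lowest ratios also stood out in fio1-1. EXT4, an extensin that strengthens the cell wall, had 86.0 CPM in fio1-5, 1366 CPM in fio1-1 and 122 CPM in Col-0, with a log2 ratio of -3.99 (interval -4.14 to -3.84). AT5G64120, a class III peroxidase of the apoplast, had 19.8 CPM in fio1-5, 501 CPM in fio1-1 and 13.6 CPM in Col-0, a level 25.3-fold lower in fio1-5 than in fio1-1. GLP9, a germin-like protein, had 2 counts in fio1-5, against 194 in fio1-1 and 5 in Col-0, a ratio of 105 with an interval of 28.6 to 869.9 for fio1-1 over fio1-5. AT2G43620, an endochitinase, a class of enzyme that cleaves the chitin of fungal walls, had 20 counts in fio1-5, against 360 in fio1-1 and 29 in Col-0. In these 4 genes fio1-1 was the highest library, and GLP9 was also more than 2-fold lower in fio1-5 than in Col-0, at few counts.

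Berberine bridge enzyme-like oxidases, some of which oxidise indolic defence compounds or cell wall oligosaccharides, supplied 3 of the 12. AT1G26390 had 1 count in fio1-5, against 106 in fio1-1 and 0 in Col-0, AT1G26380 had 3 counts in fio1-5, against 110 in fio1-1 and 2 in Col-0, and AT1G26420 had 4 counts in fio1-5, against 92 in fio1-1 and 6 in Col-0. Their log2 ratios were -6.24 (-12.15 to -4.33), -5.08 (-7.60 to -3.72) and -4.46 (-6.54 to -3.23), with the counting interval in brackets, and each rests on 4 counts or fewer in fio1-5. The remaining members of the 12 were AT1G26250, an uncharacterized protein with 7 counts in fio1-5, against 101 in fio1-1 and 5 in Col-0, and AT1G72060, annotated as a serine-type endopeptidase inhibitor, with 12 counts in fio1-5, against 168 in fio1-1 and 32 in Col-0. In AT1G72060 the fio1-5 library was also below Col-0, with a log2 ratio of -1.36 over Col-0.

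The 12 highest ratios were smaller and mixed in function. RPT2, a signalling protein of phototropism, had 91 counts in fio1-5, against 10 in fio1-1 and 57 in Col-0, a level 8.44-fold higher in fio1-5 than in fio1-1 with a log2 ratio of 3.02 (interval 2.13 to 4.19). ABCG34, a plasma membrane transporter that exports the phytoalexin camalexin, was the most counted of the 12 and had 329.6 CPM in fio1-5, 106 CPM in fio1-1 and 61.9 CPM in Col-0, with a log2 ratio of 1.63 (interval 1.48 to 1.78). SAPX, an ascorbate peroxidase of chloroplast stroma and mitochondria, had 66 counts in fio1-5, against 12 in fio1-1 and 22 in Col-0. For RPT2 the fio1-1 library was the low one, whereas for ABCG34 and SAPX the fio1-5 library was the high one.

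Chalcone synthase (CHS, TT4), the entry enzyme of flavonoid synthesis, had 30.0 CPM in fio1-5, 10.2 CPM in fio1-1 and 10.4 CPM in Col-0, with a log2 ratio of 1.54 (interval 1.05 to 2.07). RPS5B, a protein of the small ribosomal subunit, had 115 counts in fio1-5, against 34 in fio1-1 and 27 in Col-0. In both of them fio1-1 and Col-0 were close and fio1-5 was higher. The thionin gene AT1G66100, which encodes a small antimicrobial peptide, had 85.6 CPM in fio1-5, 31.1 CPM in fio1-1 and 83.2 CPM in Col-0, and the remorin gene AT1G13920 had 107 counts in fio1-5, against 26 in fio1-1 and 178 in Col-0, so that here fio1-1 was low and the other two libraries were higher.

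Among the others, AT3G48460 (a GDSL lipase) and AT1G24040 (an acyltransferase family protein) had log2 ratios of 1.44 and 1.39, and AT4G29690, annotated as alkaline phosphatase-like, had 65 counts in fio1-5, against 21 in fio1-1 and 26 in Col-0. A pair of non-coding RNAs completed the set. The U6 small nuclear RNA U6.5 (AT4G08755), a copy of the spliceosomal RNA that FIO1 methylates, had 135 counts in fio1-5, against 24 in fio1-1 and 16 in Col-0, and the small nucleolar RNA AT3G02435 had 91 counts in fio1-5, against 14 in fio1-1 and 44 in Col-0. The libraries were made with an adapter that binds poly(A) tails, which mature U6 RNA is not known to carry, and the sources used here do not give how reads of overlapping genes or of near-identical U6 copies were assigned.

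**Figure D2:**
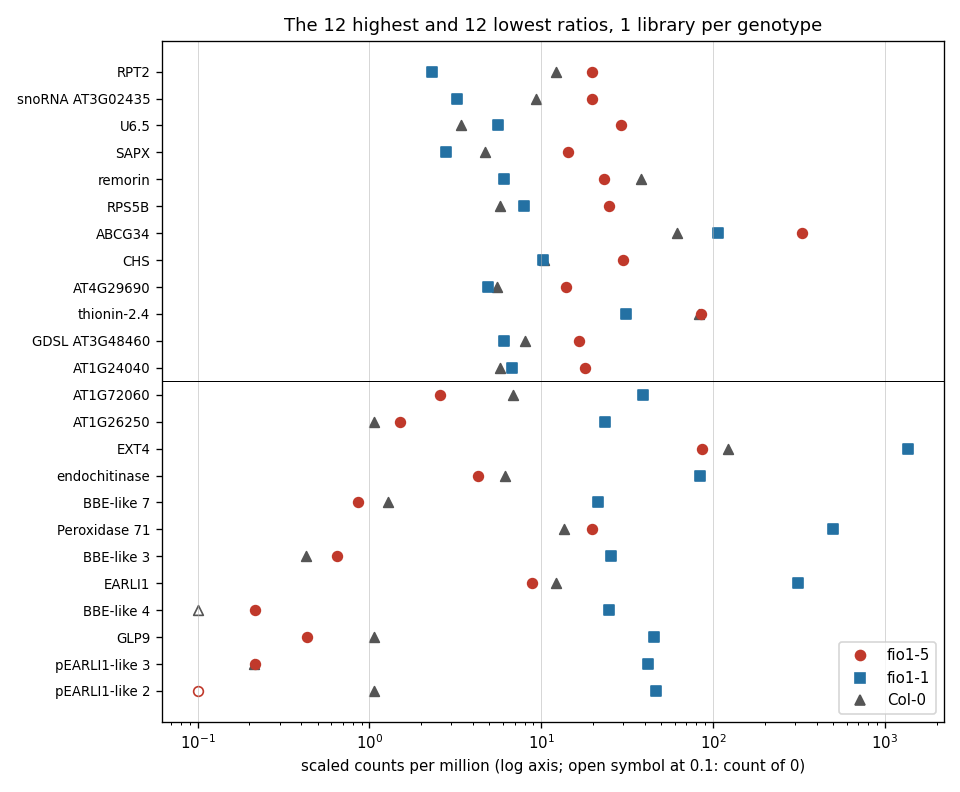
The scaled level in each library, in CPM on a log axis, is drawn for the 12 genes with the highest (upper block) and the 12 with the lowest (lower block) ratio of fio1-5 over fio1-1, with 1 symbol per genotype and open symbols at 0.1 for a count of 0. In the lower block the fio1-1 squares stand to the right of both other libraries in all 12 genes, and in the upper block the position of Col-0 varies. The choice of genes by ratio and summed counts favours a high fio1-1 level in the lower block.

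Genes that plants switch on within minutes of touch, wounding or pathogen signals had the lowest median of the gene lists compared. All 19 compared members of this list had a log2 ratio below 0, with a median of -1.40, against 0.000774 over all genes. Of the 19, 13 were at least 2-fold lower and 0 higher, where 4.97% of all genes were lower. ERF6, an ethylene response factor of stress signalling, had 10 counts in fio1-5, against 55 in fio1-1 and 66 in Col-0. CML38, a calmodulin-like calcium sensor, had 8 counts in fio1-5, against 44 in fio1-1 and 31 in Col-0, and TCH3, a calmodulin-like protein named for its response to touch, had 13 counts in fio1-5, against 63 in fio1-1 and 60 in Col-0. ZAT10 (STZ), a zinc finger repressor, had 11.4 CPM in fio1-5, 44.4 CPM in fio1-1 and 43.2 CPM in Col-0. In these 4 genes fio1-1 and Col-0 were close to each other and fio1-5 was the low library, which is the opposite of the lipid transfer and berberine bridge enzyme-like genes above.

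The same held for the list as a whole. Over the Col-0 library, the median log2 ratio of the list was -1.31 for fio1-5 and 0.01 for fio1-1, and Col-0 was nearer to fio1-1 in 16 of the 19 genes. Both ratios share that single Col-0 library. How and when each pool of seedlings was handled at harvest is not given in the sources used here, and its part in these values was not tested.

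Some slower defence genes were lower in fio1-5 too. Of 17 genes of salicylic acid synthesis, signalling and pathogenesis-related (PR) output, 6 were at least 2-fold lower and 0 higher in fio1-5, where 4.97% of all genes were lower, and 4 had a positive ratio, with a median of -0.42. SARD1, a transcription factor that drives salicylic acid synthesis, had 6 counts in fio1-5, against 24 in fio1-1 and 30 in Col-0. WRKY70, a transcription factor downstream of salicylic acid, had 57 counts in fio1-5, against 184 in fio1-1 and 161 in Col-0, a log2 ratio of -1.79 (interval -2.25 to -1.36). PAD3, the last enzyme of camalexin synthesis, had 24 counts in fio1-5, against 72 in fio1-1 and 14 in Col-0, and the marker gene PR1 had 10 counts in fio1-5, against 29 in fio1-1 and 25 in Col-0. WRKY70, SARD1 and PR1 were near the Col-0 level in fio1-1, whereas for PAD3 the fio1-1 library was high. The jasmonate list had a median of 0.07 over 19 genes, and its members past 2-fold had few counts: JAZ2, a repressor of jasmonate signalling, had 12 counts in fio1-5, against 2 in fio1-1 and 12 in Col-0, JAZ7 had 7 counts in fio1-5, against 18 in fio1-1 and 7 in Col-0, and CYP94C1, which inactivates the hormone, had 6 counts in fio1-5, against 20 in fio1-1 and 8 in Col-0.

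The lists for the aliphatic and indole branches of glucosinolate synthesis, the sulfur-containing defence compounds of crucifers, had medians of opposite sign, a difference that was not tested. In the aliphatic branch, which starts from methionine, 20 of 22 genes had a positive log2 ratio, with a median of 0.48. Of the 22, 3 were at least 2-fold higher in fio1-5 and 0 lower, where 3.24% of all genes were higher. MYB29, a regulator of the branch, had 67 counts in fio1-5, against 26 in fio1-1 and 38 in Col-0, and MAM1, which elongates the methionine side chain, had 73 counts in fio1-5, against 30 in fio1-1 and 47 in Col-0. FMO GS-OX1, which oxidises the side chain, had 87 counts in fio1-5, against 39 in fio1-1 and 47 in Col-0, and CYP79F1, which makes the first committed intermediate, had 118 CPM in fio1-5, 61.8 CPM in fio1-1 and 55.1 CPM in Col-0. In all 4 genes the fio1-5 library was the highest of the 3.

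In the indole branch, which starts from tryptophan, 5 of 13 genes were at least 2-fold lower and 1 higher in fio1-5. Of all genes, 4.97% were lower and 3.24% higher. In the indole list 3 genes had a positive ratio, and the median was -0.65. CYP81F2, which hydroxylates indole glucosinolates for use against pathogens, had 19 counts in fio1-5, against 110 in fio1-1 and 25 in Col-0, a log2 ratio of -2.61 (interval -3.43 to -1.93). IGMT1, which methylates the product, had 72.2 CPM in fio1-5, 179 CPM in fio1-1 and 81.1 CPM in Col-0, and its near copies may have shared reads. UGT74B1, a glucosyltransferase, had 104 counts in fio1-5, against 236 in fio1-1 and 83 in Col-0, and MYB51, the regulator of the branch, had 98 counts in fio1-5, against 188 in fio1-1 and 170 in Col-0. The other members past 2-fold were IGMT2, with 3 counts in fio1-5, against 22 in fio1-1 and 1 in Col-0, and on the higher side CYP81F3, with 13 counts in fio1-5, against 5 in fio1-1 and 11 in Col-0. CYP81F2, IGMT1 and UGT74B1 were high in fio1-1, while MYB51 was low in fio1-5. Over Col-0, the median of the indole list was 0.29 for fio1-5 and 0.51 for fio1-1, and that of the aliphatic list was 0.77 for fio1-5 and 0.31 for fio1-1.

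Proteins that act with glucosinolates after tissue damage differed in both directions. Among 11 myrosinases and specifier proteins none passed 2-fold and the median was 0.29. The myrosinase TGG2 had 209.7 CPM in fio1-5, 119.9 CPM in fio1-1 and 269 CPM in Col-0, and the specifier protein ESP had 88 counts in fio1-5, against 43 in fio1-1 and 83 in Col-0, both higher in fio1-5 than in fio1-1, whereas the nitrile specifier protein NSP1 had 206 CPM in fio1-5, 362 CPM in fio1-1 and 143 CPM in Col-0. The beta-glucosidases and jacalin lectins of ER bodies, storage compartments for damage-activated enzymes, had a median of -0.64, with 1 of 16 at least 2-fold lower and 0 higher. Of these, the lectin JAL34 had 71.6 CPM in fio1-5, 149 CPM in fio1-1 and 46.6 CPM in Col-0, and PBP1, a lectin that binds the main ER body glucosidase, had 1082 CPM in fio1-5, 2037 CPM in fio1-1 and 694 CPM in Col-0. For JAL34 and PBP1 the fio1-1 library was the highest and fio1-5 lay between it and Col-0.

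Genes for seed storage, were used here as markers of seed tissue. All 11 compared seed markers had a negative log2 ratio, with a median of -0.63, and 2 were at least 2-fold lower in fio1-5, where 4.97% of all genes were. The 12 seed markers listed summed to 1003 CPM in fio1-5, 1551 CPM in fio1-1 and 485 CPM in Col-0, with no marker at 0 counts in any library. The 2S albumin gene SESA3 had 37 counts in fio1-5, against 89 in fio1-1 and 88 in Col-0, and the oleosin gene OLEO2 had 138 CPM in fio1-5, 214 CPM in fio1-1 and 88.7 CPM in Col-0. SESA4, the other member past 2-fold, had 1 count in fio1-5, against 10 in fio1-1 and 10 in Col-0. The part of seed RNA in the ER body and defence values was not tested.

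Among genes that respond to a lack of sugar, most had lower values in fio1-5. In this list 17 of 18 genes had a negative log2 ratio, with a median of -0.91. Of the 18, 7 were at least 2-fold lower and 0 higher, where 4.97% of all genes were lower. ASN1, the asparagine synthetase of dark and starved leaves, had 34 counts in fio1-5, against 162 in fio1-1 and 161 in Col-0, a log2 ratio of -2.34 (interval -2.94 to -1.82). BCAT-2, which acts on branched-chain amino acids, had 19 counts in fio1-5, against 74 in fio1-1 and 45 in Col-0, and the trehalose phosphate synthase-like genes TPS8 and TPS11 had log2 ratios of -1.67 and -1.35. ASN1 was about equally high in fio1-1 and Col-0, while BCAT-2 and TPS8 were higher in fio1-1 than in Col-0. The median of the list over Col-0 was -0.51 for fio1-5 and 0.67 for fio1-1. The summed level of the 20 genes listed was highest in Col-0, with 3451 CPM in fio1-5, 5424 CPM in fio1-1 and 7554 CPM in Col-0. Median and sum thus placed fio1-1 on different sides of Col-0. The Col-0 value was nearer to fio1-5 in 10 genes and nearer to fio1-1 in 8. The related senescence regulator NAP had 59 counts in fio1-5, against 141 in fio1-1 and 72 in Col-0, and 1 of 5 senescence genes was at least 2-fold lower in fio1-5.

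Photosynthesis genes differed by small amounts in the same direction. All 43 compared genes for photosystem and antenna proteins had a positive log2 ratio, which ranged over 0.11 to 0.90 with a median of 0.34, and none reached 2-fold. The 44 genes listed summed to 158430.0 CPM in fio1-5, 127306 CPM in fio1-1 and 144436 CPM in Col-0. LHCA1, a light-harvesting protein of photosystem I, had 280 counts in fio1-5, against 139 in fio1-1 and 184 in Col-0. LHCB2.1, an antenna protein of photosystem II, had 3775 CPM in fio1-5, 2362 CPM in fio1-1 and 1371 CPM in Col-0, and PSBQ-2, a subunit of the oxygen-evolving complex, had 138 CPM in fio1-5, 79.7 CPM in fio1-1 and 147 CPM in Col-0. Among the near-identical LHCB1 and LHCB2 genes reads could be assigned to the wrong copy, so single copies are uncertain. The Col-0 value was nearer to fio1-5 in 19 genes and nearer to fio1-1 in 24, with list medians over Col-0 of 0.19 for fio1-5 and -0.17 for fio1-1.

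Other chloroplast pathways had small positive medians as well. Of 18 Calvin cycle genes 17 had a positive log2 ratio, with a median of 0.35, and the Col-0 value was nearer to fio1-5 in 16. SBPASE, an enzyme of carbon dioxide acceptor regeneration, had 429 CPM in fio1-5, 291 CPM in fio1-1 and 410.1 CPM in Col-0. Chlorophyll synthesis had a median of 0.47, with 1 of 23 genes, PORA, at least 2-fold higher in fio1-5 (17 counts in fio1-5, against 3 in fio1-1 and 4 in Col-0). PCB2, the divinyl reductase of the pathway, had 69.4 CPM in fio1-5, 37.4 CPM in fio1-1 and 46.6 CPM in Col-0, and CHLI1, a subunit of magnesium chelatase, had 323 CPM in fio1-5, 198 CPM in fio1-1 and 248 CPM in Col-0. Starch breakdown in leaves had a median of 0.33 and no gene past 2-fold. In the flavonoid list 3 of 12 genes were higher, where 3.24% of all genes were. The 3 were CHS, the flavonol synthase FLS1 with 63 counts in fio1-5, against 22 in fio1-1 and 21 in Col-0, and the regulator MYB111 with 12 counts in fio1-5, against 1 in fio1-1 and 9 in Col-0.

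**Figure D3:**
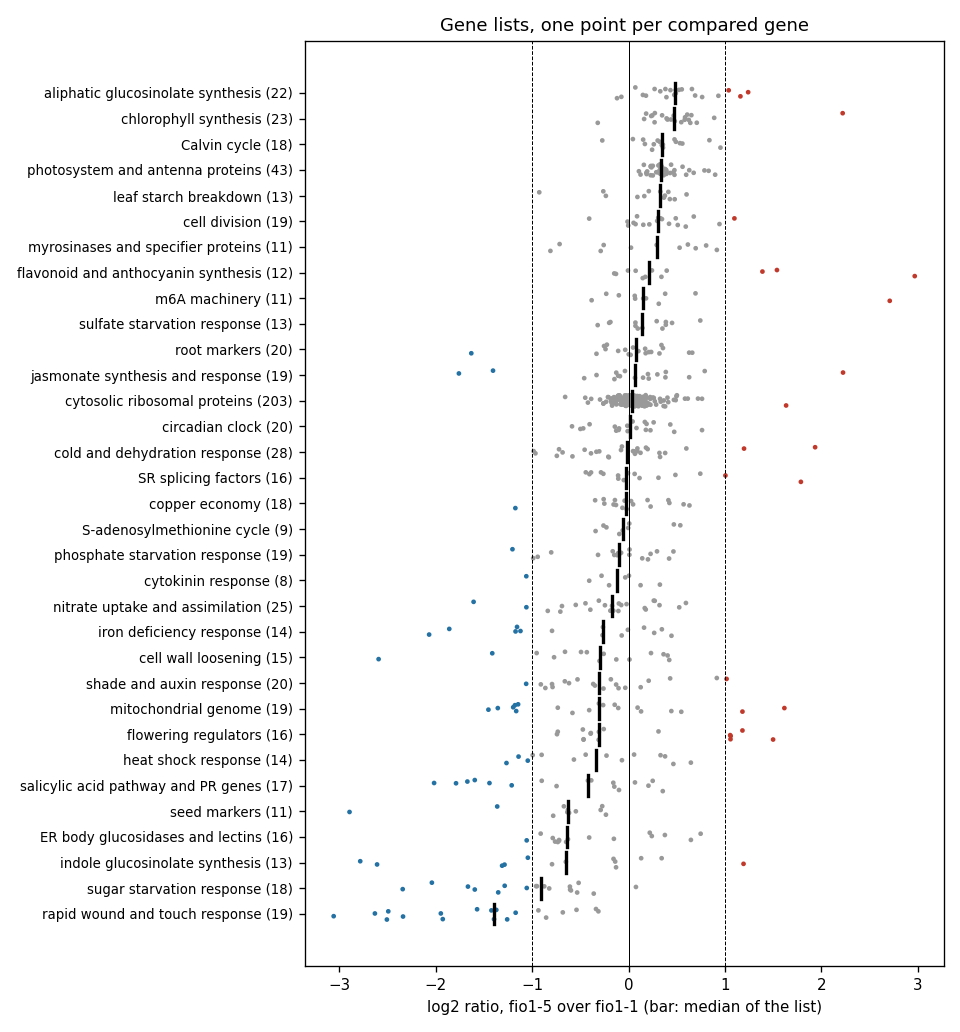
Each point is the log2 ratio of fio1-5 over fio1-1 of a compared gene, the rows are gene lists with the number of compared genes in brackets, and the black bar is the median of the list. Red points are at least 2-fold higher and blue points at least 2-fold lower in fio1-5. The bars run between 0.48 for aliphatic glucosinolate synthesis and -1.40 for the rapid wound and touch response, and the photosystem list lies wholly above 0.

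Nutrient responses differed in a few genes. Of 14 iron deficiency genes 5 were at least 2-fold lower and 0 higher in fio1-5, where 4.97% of all genes were lower, with a median of -0.27. IRT1, the iron uptake transporter of roots, had 5 counts in fio1-5, against 21 in fio1-1 and 45 in Col-0, and BHLH101, a transcription factor that activates it, had 2 counts in fio1-5, against 8 in fio1-1 and 50 in Col-0. F6'H1 (AT3G13610), which makes the precursor of coumarins secreted by roots, had 93 counts in fio1-5, against 195 in fio1-1 and 32 in Col-0, and PYE, a regulator of iron balance, had 25 counts in fio1-5, against 51 in fio1-1 and 70 in Col-0. BHLH39, a relative of BHLH101 with 6 counts in fio1-5, against 13 in fio1-1 and 22 in Col-0, was the last of the 5. IRT1, BHLH101 and BHLH39 rested on 6 counts or fewer in fio1-5. At such low counts more genes were lower: 377 of 3149 with 20 to 50 counts over the 3 libraries, and 152 of 2559 with 50 to 100. IRT1, BHLH101 and PYE were highest in Col-0, so fio1-5 was the library farther from it, while F6'H1 was highest in fio1-1. Ferritins, which store iron, had log2 ratios of -0.05 to 0.50.

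Among 25 nitrate genes 2 were lower, BT2 with 121 counts in fio1-5, against 343 in fio1-1 and 455 in Col-0 and BT1 with 53 counts in fio1-5, against 103 in fio1-1 and 105 in Col-0, scaffold proteins of nutrient and sugar signalling, and the median was -0.17. That count and the next are near the 4.97% of all genes that were lower. Phosphate starvation genes had a median of -0.10 with 1 of 19, the phospholipase PLDZ2, lower at 10 counts in fio1-5, against 22 in fio1-1 and 4 in Col-0. The phosphate transporter PHT1;1 had 80.6 CPM in fio1-5, 155 CPM in fio1-1 and 24.5 CPM in Col-0, below 2-fold between the mutants but well above Col-0 in both. The copper and sulfate lists had medians of -0.03 and 0.14, and FRO5, a root metal reductase with 15 counts in fio1-5, against 32 in fio1-1 and 2 in Col-0, was their 1 member past 2-fold.

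Abiotic stress lists differed in single genes. Cold and dehydration genes had a median of -0.01 over 28 genes, with 2 higher and 0 lower. The galactinol synthase GOLS3 was 1 of them, with 18 counts in fio1-5, against 7 in fio1-1 and 5 in Col-0. Their largest ratio was that of CBF3 (DREB1A), an activator of cold-induced genes, with 51 counts in fio1-5, against 12 in fio1-1 and 22 in Col-0. Its close relative CBF1 had 15 counts in fio1-5, against 28 in fio1-1 and 43 in Col-0, a log2 ratio of -0.98 (interval -2.02 to -0.06). The ratios had opposite signs, but CBF1 was below 2-fold, and reads could be split between these neighbouring and similar genes. In the heat shock list 3 of 14 genes were lower in fio1-5, where 4.97% of all genes were, with a list median of -0.34. All 3 were transcriptional regulators (DREB2A with a log2 ratio of -1.27, MBF1C with -1.14 and HSFB2A with -1.05). Of the 14 genes, 9 had a negative and 5 a positive ratio, the highest 0.65. The chaperone gene HSC70-1, picked once its value was known, had -0.23.

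Flowering regulators held a few genes that were higher in fio1-5, at low counts, and no clock gene passed 2-fold. Of 16 flowering regulators 5 were at least 2-fold higher and 0 lower in fio1-5, where 3.24% of all genes were higher, and the median was -0.31, so the median and the genes past 2-fold differed in sign. With 2 counts added 1 of the 5, SPL9, was past 2-fold, and from the deposited TPM none was. SPL9, an activator of the floral transition, had 68 counts in fio1-5, against 30 in fio1-1 and 50 in Col-0, and TOE1 (RAP2.7), a repressor of it, had 32 counts in fio1-5, against 14 in fio1-1 and 21 in Col-0. The interval of the log2 ratio was 0.43 to 1.74 for SPL9. The others past 2-fold were FLC (above), the floral activator AGL24 with 14 counts in fio1-5, against 6 in fio1-1 and 5 in Col-0, and TOE2, a relative of TOE1, with 8 counts in fio1-5, against 3 in fio1-1 and 10 in Col-0. FLC, AGL24 and TOE2 had 20 to 50 counts over the 3 libraries, a class in which 347 of 3149 genes were higher. TEM1, a repressor of the florigen gene, had 63.6 CPM in fio1-5, 106 CPM in fio1-1 and 93.6 CPM in Col-0, and FLM (MAF1), a temperature-dependent repressor, had 16 counts in fio1-5, against 25 in fio1-1 and 21 in Col-0. The integrator SOC1 (AGL20) had 63 counts in fio1-5, against 47 in fio1-1 and 29 in Col-0, and its log2 ratio was 0.31 (interval -0.25 to 0.89). The median of the 20 clock genes was 0.02. GI, a clock gene that acts upstream of flowering, had 58 counts in fio1-5, against 81 in fio1-1 and 67 in Col-0, and FKF1, a light receptor that works with it, had 150 counts in fio1-5, against 100 in fio1-1 and 204 in Col-0, with log2 ratios of -0.59 (interval -1.10 to -0.09) for GI and 0.47 (interval 0.10 to 0.86) for FKF1.

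Growth lists differed in single genes. Cell wall loosening genes had a median of -0.30, and 2 of 15 were lower in fio1-5, where 4.97% of all genes were. PHI-1 (EXL1), a phosphate-induced gene of extension growth, had 11 counts in fio1-5, against 64 in fio1-1 and 40 in Col-0 and a log2 ratio of -2.59 (interval -3.72 to -1.71). XTR6 (XTH23), a xyloglucan endotransglucosylase, had 28 counts in fio1-5, against 70 in fio1-1 and 59 in Col-0. Cell division genes had a median of 0.31, with the mitotic cyclin CYCB1;1 as the 1 gene past 2-fold (26 counts in fio1-5, against 11 in fio1-1 and 16 in Col-0). Shade and auxin genes had a median of -0.30, and its 20 genes included the auxin synthesis gene YUC9, higher with 18 counts in fio1-5, against 8 in fio1-1 and 8 in Col-0, and the shade response gene PAR1, lower with 24 counts in fio1-5, against 47 in fio1-1 and 46 in Col-0. The cytokinin list had a median of -0.12, and the cytokinin oxidase CKX5, with 8 counts in fio1-5, against 16 in fio1-1 and 11 in Col-0, was its 1 member past 2-fold. Among the 6 classical lipid transfer proteins of the epidermis, LTP2 had 572 CPM in fio1-5, 1360.0 CPM in fio1-1 and 542 CPM in Col-0 and LTP6 had 127 CPM in fio1-5, 54.9 CPM in fio1-1 and 73.6 CPM in Col-0, so LTP2 was high in fio1-1 and LTP6 was high in fio1-5.

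Lists for RNA methylation, splicing and translation had medians of -0.06 to 0.15, with differences in single genes. In the m6A list 1 of 11 genes was at least 2-fold higher and 0 lower in fio1-5, with a median of 0.15. The member past 2-fold was the m6A reader ECT4, with 17 counts in fio1-5, against 2 in fio1-1 and 5 in Col-0. The reader ECT3 had a log2 ratio of -0.23 from counts and of 2.04 from the deposited TPM, so its direction depends on the unit. The m6A writer MTA had 48 counts in fio1-5, against 40 in fio1-1 and 65 in Col-0, the reader ECT2 had 157 counts in fio1-5, against 190 in fio1-1 and 199 in Col-0 and the demethylase ALKBH10B had 219 counts in fio1-5, against 179 in fio1-1 and 190 in Col-0. The cycle that makes S-adenosylmethionine, the methyl donor, had no gene past 2-fold, and SAHH2, which removes the by-product of methylation, had the largest ratio at 0.54. SR proteins, which guide splice site choice, had a median of -0.03 with 2 of 16 higher, where 3.24% of all genes were. SR34b had 33 counts in fio1-5, against 15 in fio1-1 and 46 in Col-0 and SR34a had 5 counts in fio1-5, against 1 in fio1-1 and 16 in Col-0. With 2 counts added SR34b was below 2-fold, and from TPM neither was past it. The 203 cytosolic ribosomal protein genes had a median of 0.04, and RPS5B was the only member past 2-fold in these libraries. Transcripts of the mitochondrial genome had a median of -0.31, with 2 higher and 6 lower of 19, mostly at low counts. Of all genes, 3.24% were higher and 4.97% lower. Among the 6, ATMG01370 had 14 counts in fio1-5, against 34 in fio1-1 and 25 in Col-0. The higher ones were ATMG00640 with 11 counts in fio1-5, against 3 in fio1-1 and 10 in Col-0 and ATMG00070 with 8 counts in fio1-5, against 3 in fio1-1 and 15 in Col-0.

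The terms of the gene annotation were ranked by their medians as well. A term that shared over 70% of its genes with one already named was left out of the account. Of 822 terms with 15 to 300 compared genes, the lowest median was that of the response to oomycetes (-0.82, 8 of 19 genes at least 2-fold lower, against 4.97% of all genes), followed by the cellular response to hypoxia (-0.77, 58 of 159), the response to absence of light (-0.61, 5 of 29), the response to chitin (-0.55, 26 of 80) and the response to salicylic acid (-0.42, 21 of 68). The hypoxia term holds many genes of general stress. It shared 7 genes with the rapid wound and touch list, 4.40% of the term and 36.8% of the list, and without them its median was -0.74 with 53 of 152 genes lower. The chitin term shared 10 genes with that list, 12.5% of the term and 52.6% of the list, and 13 with the hypoxia term. These terms are therefore not separate from the list or from each other. The highest medians were those of chloroplast terms, protein import into the chloroplast stroma (0.40), the oxygen evolving complex of photosystem II (0.39), chlorophyll biosynthetic process (0.39) and plastid translation (0.38). In each of these 4 terms 0 or 1 gene passed 2-fold, so the medians come from small differences.

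The position of the single Col-0 library was described for the genes that differed between the mutants. Among the 1350 genes at least 2-fold apart, the Col-0 value lay between the mutants in 701 (51.9%), above both in 281 and below both in 368. It was nearer to fio1-5 in 778 genes and nearer to fio1-1 in 572. Only the fio1-5 value was at least 2-fold from Col-0 in 342 genes, only the fio1-1 value in 505, both values in 157 and neither in 346. Of the 25 well counted genes at least 8-fold lower in fio1-5, Col-0 was nearer to fio1-5 in 23. With fio1-5 that low, such genes reach the count minimum mostly through fio1-1 or Col-0. The set thus favours a high fio1-1 value, and its Col-0 position does not show which mutant departed. EARLI1 had log2 ratios over Col-0 of -0.45 in fio1-5 and 4.67 in fio1-1, and ERF6, from the rapid response list, had -2.65 in fio1-5 and -0.13 in fio1-1. These counts describe where 1 Col-0 library lay, and a Col-0 value that is high or low by chance moves both ratios.

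**Figure D4:**
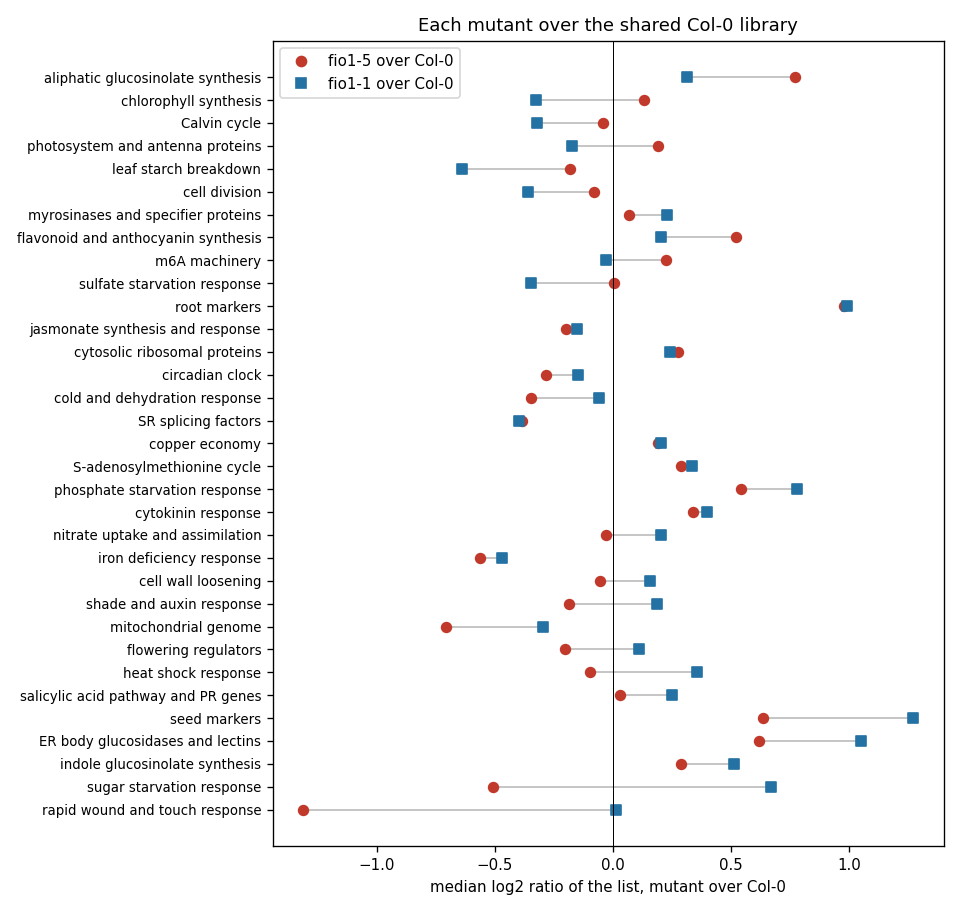
For each gene list the median log2 ratio over the shared Col-0 library is drawn for fio1-5 (red circles) and fio1-1 (blue squares), with a grey line between them. The lines are longest for the rapid wound and touch list (-1.31 in fio1-5, 0.01 in fio1-1) and for the sugar starvation list (-0.51 in fio1-5, 0.67 in fio1-1), and the symbols nearly coincide for cytosolic ribosomal proteins (0.27 in fio1-5, 0.24 in fio1-1).

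Direct RNA reads also give the share of each isoform in a gene. In 1678 genes with at least 50 counts in each mutant and more than 1 isoform counted, the largest difference in the share of an isoform had a median of 1.37 percentage points, and it stayed under 5 points in 79.9% of the genes. It was at least 10 points in 127 genes and at least 20 points in 24. APT1, an adenine salvage enzyme, had the largest one, with its isoform AT1G27450.1 at 25.0% (14.4% to 38.4%) of counts in fio1-5, against 78.8% (71.2% to 85.3%) in fio1-1 and 62.7% (51.3% to 73.0%) in Col-0, where brackets hold exact binomial 95% intervals. The mutant intervals did not overlap, and fio1-5 was the library apart. As the 6 genes were picked for the largest differences, separate mutant intervals follow in large part from that choice. The intervals also treat estimated isoform counts as exact.

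In the others the library that stood apart varied. The first isoform of AT2G38710, AT2G38710.1, held 97.2% (92.2% to 99.4%) in fio1-5, against 59.3% (51.6% to 66.4%) in fio1-1 and 93.9% (87.1% to 97.7%) in Col-0, with the rest in a second isoform, so fio1-1 was apart. For AT5G63000 the isoform AT5G63000.1 held 69.9% (60.6% to 78.2%) in fio1-5, against 27.8% (21.4% to 34.9%) in fio1-1 and 95.4% (89.5% to 98.5%) in Col-0, below Col-0 in both mutants. UMAMIT33, a member of the UMAMIT family of amino acid transporters, had AT4G28040.2 at 54.1% (43.1% to 64.4%) in fio1-5, against 17.7% (12.6% to 23.9%) in fio1-1 and 25.0% (16.2% to 35.6%) in Col-0, with fio1-5 apart.

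COBL5, a COBRA-like cell wall protein, had AT5G60950.1 at 82.7% (75.2% to 89.7%) in fio1-5, against 50% (41.5% to 58.5%) in fio1-1 and 34.9% (22.7% to 51.5%) in Col-0. SNG1, the acyltransferase that makes sinapoyl malate, had AT2G22990.6 at 12.1% (7.97% to 17.3%) in fio1-5, against 44.7% (38.6% to 50.9%) in fio1-1 and 28.1% (24.0% to 32.5%) in Col-0. The fio1-5 library was highest for COBL5 and lowest for SNG1. SNG1 lies among similar serine carboxypeptidase-like genes, and 1 of the models counted under it is annotated as a neighbour, so its shares are uncertain. For FIO1 itself, the isoform AT2G21070.1 held 30.4 estimated counts in fio1-5, against 15.3 in fio1-1 and 23.7 in Col-0, while AT2G21070.2 was at 0 in all 3 libraries.

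**Figure D5:**
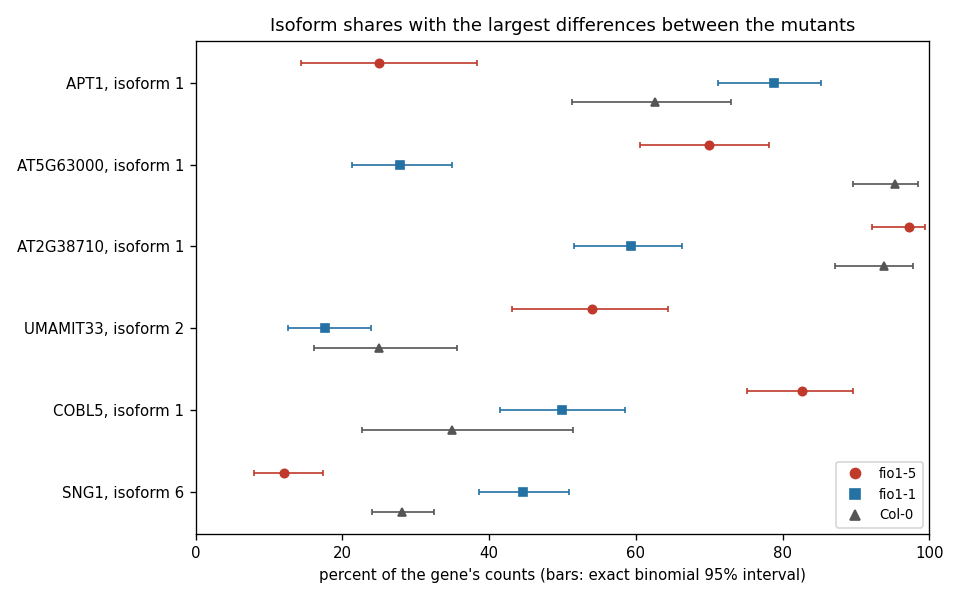
The share of 1 isoform in the counts of its gene, in percent, is drawn for the 6 genes with the largest differences between the mutants, with circles for fio1-5, squares for fio1-1, triangles for Col-0 and bars for the exact binomial 95% interval. The intervals of fio1-5 and fio1-1 are apart in all 6 genes, which the choice of genes by the size of this difference favours. Those of Col-0 lie nearer to fio1-1 for APT1, UMAMIT33 and COBL5 and nearer to fio1-5 for AT5G63000 and AT2G38710.

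Technical and positional features of the genes were described beside these values. Across 4 classes of transcript length the median log2 ratio was -0.02 in the shortest and 0.04 in the longest, and the share of genes at least 2-fold lower in fio1-5 was 6.26% in the shortest and 3.86% in the longest. The share at least 2-fold higher was 2.85% in the shortest and 3.44% in the longest. By chromosome, 7.57% to 8.87% of compared genes were at least 2-fold apart, with the lowest share on chromosome 5 and the highest on chromosome 4, and chromosome 2, which carries FIO1, had 8.20%. In locus order there were 10 runs of 3 or more neighbouring compared genes that were all at least 2-fold lower in fio1-5, with 34 genes in all, and 0 runs of higher genes. Several of the runs are tandem families, among them the berberine bridge enzyme-like genes AT1G26380 to AT1G26420, the indole glucosinolate methyltransferases IGMT1 to IGMT2, and the glutathione S-transferases GSTF7, GSTF6 and GSTF4. GSTF7, a detoxifying enzyme induced by pathogens, had 511 counts in fio1-5, against 4871 in fio1-1 and 333 in Col-0. Reads of such neighbours can be split between similar copies, and the longest run held 4 genes, so none spanned a wider region.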

How the data were processed

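Direct RNA sequencing libraries of pooled seedlings (SQK-RNA002 kit, PromethION) were compared, 1 per genotype. According to the methods, the authors base called and filtered the reads, corrected them and mapped them with minimap2 2.17-r941, with SAMtools 1.10 for alignment ratios. The authors deposited an estimated count per isoform, not normalized, and a TPM value per isoform, scaled to isoform length and library. The counting tool, its annotation and build, and its use of strand are not given in the sources used here. The column headers name no platform. They were taken for the Nanopore libraries on the basis of the paper, and the column fio1_2 is fio1-5 under its working name. The deposited correlation coefficients and a second copy of the tables without annotation were not used, and m6A site calls and Illumina data were not analysed here.

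Counts of all isoforms of a gene were added and the sum was rounded. The libraries were scaled with TMM (edgeR 4.0.16, R 4.3.3), whose factors were 0.991 for fio1-5, 0.989 for fio1-1 and 1.02 for Col-0. Log2 ratios were computed in Python 3.11.15 (numpy 2.4.6, pandas 2.3.3, scipy 1.17.1, matplotlib 3.10.9) after adding 0.5 counts, over genes that reached 20 counts in the 3 libraries together. Folds were taken without an addition, and against 3 counts in the library where a count was 0. Intervals are exact conditional binomial intervals at 95% of the scaled ratio (Clopper-Pearson), and they and the floor cover counting error only, since reads carry no molecular identifiers. Past 2-fold is a cutoff of size and not a test. Isoforms without an annotated gene hold 0.168% to 0.177% of the counts. The steps were tested on simulated data.

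The genes named are FIO1, FLC, the 12 highest and 12 lowest ratios among annotated nuclear genes with at least 100 counts, up to 4 members per gene list with the largest ratio among those with at least 50 counts, members that define a list, and the 6 genes with the largest differences in isoform share. SOC1, HSC70-1, MTA, ALKBH10B, GSTF7, list members past 2-fold with under 50 counts, and the families in the closing section were picked once their values were known. The comparison, its members and its 39 gene lists were chosen with earlier results of these data known. Of 713 list entries, 4 were left out because the annotation gave no matching name. Gene names come from the annotation in the deposited tables and from RefSeq (TAIR10.1), matched by locus, and locus order from the identifiers. The alternatives were total-count scaling, DESeq2 1.42.0 size factors, the deposited TPM, 2 counts added, no minimum, at least 100 counts, a 4-fold cutoff, genes whose interval excludes equal levels, and isoforms in place of genes.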

Additional observations from a re-analysis of the deposited data

Results flagged for a closer look

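Over the shared Col-0 library, 4 of the 177 named genes were at least 2-fold away in opposite directions in the mutants. AT4G12490, a pEARLI1-like lipid transfer gene, was lower than Col-0 in fio1-5 and higher in fio1-1, with a log2 ratio of fio1-5 over fio1-1 of -8.71. GLP9, a germin-like gene, had the same pattern with -6.38, and so did AT1G72060, an endopeptidase inhibitor gene, with -3.86. The small nucleolar RNA AT3G02435 had the opposite pattern, higher than Col-0 in fio1-5 and lower in fio1-1, with 2.55. The Col-0 level of AT4G12490 and GLP9 rests on 5 counts each, and with 1 library per genotype the difference was not tested in any of the 4 genes.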

How the results depend on the processing

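The number of genes at least 2-fold higher in fio1-5 was 236 from the deposited TPM with 0.5 TPM added, 2392 with no minimum count, 62 with at least 100 counts, 77 at a 4-fold cutoff and 318 with an interval that excludes equal levels, in place of 533. The number lower was 2548 with no minimum, 288 with at least 100 counts and 163 at 4-fold, in place of 817. The TPM covers the same genes at the same cutoff, while the other settings test other genes or ask for another size of difference. From TPM, the share of genes with Col-0 between the mutants was 56.2%, the ribosomal protein median 0.0236, and the medians of the shortest and longest transcripts -0.0331 and 0.0225. With at least 100 counts in each mutant, the largest isoform difference was 42.1 points. Among named genes, TPM gave -4.19 for AT1G26390, -1.24 for AT5G63000, 0.17 for CAB1 and 2.04 for ECT3, whose ratio from counts was -0.23 and whose sign therefore depends on the unit. The cause was not tested. Total-count scaling, DESeq2 size factors and 2 counts added left the 177 named genes within their counting intervals and the list medians within their spread. Both scalings kept all 71 named genes past 2-fold there. With 2 counts added 3 fell below it, FLC at 0.95, TOE1 at 0.99 and SR34b at 0.94, and from TPM 9 did and 2, ECT3 and AT5G63000, passed it. From TPM the flowering, SR, copper, phosphate, shade, cytokinin and cell division lists had no member past 2-fold, and with 2 counts added the cytokinin list had none. No replicate could be left out, and no paired analysis was possible because there was 1 library per genotype.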

Other observations

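Gene families taken from the annotation text, chosen after their values were seen and given without a test, extend the account. Beside their counts, 3.24% of all compared genes were at least 2-fold higher and 4.97% at least 2-fold lower in fio1-5. Some family members reached the count minimum only through the mutant in which they were high, which favours members past 2-fold. Among class III peroxidases, which use hydrogen peroxide in the cell wall, 3 higher and 11 lower of 52 compared genes were past 2-fold, with a family median of -0.10, while PRXCB had 1942 counts in fio1-5, against 6462 in fio1-1 and 1007 in Col-0 and AT2G37130 had 2527 counts in fio1-5, against 5709 in fio1-1 and 1325 in Col-0. Among berberine bridge enzyme-like genes 1 higher and 9 lower of 16 were past 2-fold, with AT1G30730 at 49 counts in fio1-5, against 196 in fio1-1 and 19 in Col-0. Chitinases had 0 higher and 3 lower of 14, with a median of -0.73, and beside AT2G43620 the lower ones were CHI, with 109 counts in fio1-5, against 348 in fio1-1 and 72 in Col-0, and AT4G19820, with 6 counts in fio1-5, against 15 in fio1-1 and 9 in Col-0. Among genes matched as WRKY transcription factors 0 higher and 11 lower of 41 were past 2-fold, and the one with the lowest ratio was WRKY48, a regulator of basal defence, with 10 counts in fio1-5, against 44 in fio1-1 and 16 in Col-0. The 41 include 3xHMG-box2, described as a high mobility group protein, with a log2 ratio of 0.69. AZI1, a lipid transfer protein of systemic defence priming that lies beside EARLI1, had 488 counts in fio1-5, against 4124 in fio1-1 and 336 in Col-0.

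Of the 15 families taken, the others were mixed, again beside 3.24% of all genes higher and 4.97% lower. The lower count of the serine carboxypeptidase-like proteins and the count of the cysteine-rich kinases, given below, are near these shares. Glutathione S-transferases had 0 higher and 6 lower of 42 genes past 2-fold and a median of -0.14. Its lowest ratios were those of GSTF7 and GSTF6, at -3.36 and -3.27. GDSL esterases had 4 higher and 0 lower of 49 past 2-fold and a median of 0.13, and the higher ones were LTL1, with 653 counts in fio1-5, against 302 in fio1-1 and 590 in Col-0, AT3G48460, AT5G45960 and AT4G16230. Serine carboxypeptidase-like proteins had 3 higher and 2 lower of 30, with SCPL9, SCPL10 and SCPL44 on the higher and SCPL6 and SCPL19 on the lower side, and cysteine-rich receptor-like kinases had 1 higher and 0 lower of 15, which was CRK42, with 21 counts in fio1-5, against 7 in fio1-1 and 25 in Col-0. The remaining large families were wall-associated kinase-like proteins, ethylene-responsive transcription factors, calmodulin-like proteins, cytochromes P450 matched by the name CYP71, U-box proteins and xyloglucan endotransglucosylases, which each had at most 1 member higher and 3 to 8 lower, with medians of -0.36 to -0.01. The CYP71 match also took in CYP710A1, CYP710A2 and AT5G36130, annotated as cytochrome P450 716A2, none of them past 2-fold. The peroxidases that were higher in fio1-5 were AT5G58390, with 71 counts in fio1-5, against 28 in fio1-1 and 58 in Col-0, AT4G16270, with 16 counts in fio1-5, against 6 in fio1-1 and 5 in Col-0, and AT4G08780, with 15 counts in fio1-5, against 0 in fio1-1 and 10 in Col-0. The berberine bridge enzyme-like gene that was higher, AT2G34810, had 91 counts in fio1-5, against 33 in fio1-1 and 122 in Col-0.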
